A study of Homo sapiens with 6 samples.

Results

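Of 10 transcriptional feedback genes of the ERK pathway, DUSP5, SPRY4, SPRY1 and DUSP6 were higher in HepG2 cells expressing TAF2 than in HepG2 cells expressing eGFP, by 1.22-fold to 2.19-fold. ETV4 was higher by 5.40%. SPRY2, SPRED2, ETV5, SPRED1 and the barely expressed DUSP4 did not pass the test. The genes were taken by symbol for their known role: the phosphatases DUSP4, DUSP5 and DUSP6, the Sprouty genes SPRY1, SPRY2 and SPRY4, the Sprouty-related SPRED1 and SPRED2, and the ETS factors ETV4 and ETV5. The choice was made with earlier results of these data known. All 10 had a row among the 26475 genes of the deposited table, and all 10 were among the 12902 genes tested.

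The 6 RNA-seq libraries came from HepG2, an established human liver tumour line with hepatocyte features and an activating NRAS mutation. In 3 of them the cells expressed TAF2, which belongs to TFIID, a basal factor at RNA polymerase II promoters, and in 3 they expressed the reporter protein eGFP. RNA came from cells in exponential growth, and no further treatment is given. The labels do not say how TAF2 or eGFP was introduced, whether each line is a clone or a pool, or whether replicates were cultured separately. P-values thus reflect the variation among these 6 libraries alone, and that variation may be technical.

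Total counts ran from 24631251 to 28024004 in TAF2 libraries and from 22276308 to 27137862 in eGFP libraries. TAF2 itself had 50.1, 48.3 and 47.4 CPM (reads of the gene per 1000000 counted reads) in TAF2 libraries and 35.8, 40.4 and 37.5 CPM in eGFP libraries, a 1.28-fold difference without overlap. All 8 hepatocyte markers examined (ALB, AFP, APOA1, TTR, SERPINA1, FGB, HNF4A and TF) were expressed, with summed levels of 19599 to 19885 CPM in TAF2 and 25892 to 26291 CPM in eGFP libraries. FGB went against the sum, with means of 91.8 CPM in TAF2 and 58.9 CPM in eGFP libraries. TTR overlapped between the groups, and the other markers were lower in every TAF2 library than in every eGFP library. Of 10 markers of blood, endothelial, mesenchymal, basal epithelial and neuroendocrine cells, 7 averaged under 1 CPM, and PTPRC, KRT5 and CHGA had no count in any library. That list summed to 22.1 to 23.6 CPM in TAF2 and 10.9 to 11.9 CPM in eGFP libraries, most of it PDGFRB. The part of these marker differences in the results was not tested.

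In the RAS to ERK pathway, growth factor receptors activate RAS, which switches on the kinases RAF, MEK and ERK in turn. Active ERK induces genes whose products damp the pathway again. DUSP phosphatases remove the activating phosphates of ERK, Sprouty proteins restrain signalling between receptor and RAF, and SPRED proteins bring neurofibromin to RAS. ETV4 and ETV5 are ETS factors of the PEA3 group that carry ERK output to target genes. The repressor CIC holds many of these genes down until ERK signalling relieves it.

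RefSeq promoter windows on GRCh38.p14, each from 250 bases before to 50 bases after an annotated start, were matched by symbol for 6 of the 10 genes. They are shown for the members that rose and have a window, DUSP6, SPRY4 and SPRY1 (2 starts), and for SPRY2 (the first of its windows) as the Sprouty gene that did not pass the test. Capitals mark the motif matches described after the sequences.
DUSP6, chr12:89352452-89352751, minus strand: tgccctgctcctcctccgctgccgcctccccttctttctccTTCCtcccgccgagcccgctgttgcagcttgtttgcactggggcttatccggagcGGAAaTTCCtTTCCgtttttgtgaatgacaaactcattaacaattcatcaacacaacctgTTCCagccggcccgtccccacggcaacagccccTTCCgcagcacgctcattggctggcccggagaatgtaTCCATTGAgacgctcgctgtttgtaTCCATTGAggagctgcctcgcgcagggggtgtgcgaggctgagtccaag
SPRY4, chr5:142324198-142324497, minus strand: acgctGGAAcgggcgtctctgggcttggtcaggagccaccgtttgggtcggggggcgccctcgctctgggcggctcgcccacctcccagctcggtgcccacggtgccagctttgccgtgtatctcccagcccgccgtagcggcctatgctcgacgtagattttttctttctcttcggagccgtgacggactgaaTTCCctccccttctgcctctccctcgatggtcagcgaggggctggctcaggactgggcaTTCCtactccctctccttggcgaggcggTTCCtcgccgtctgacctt
SPRY1, chr4:123396545-123396844, plus strand: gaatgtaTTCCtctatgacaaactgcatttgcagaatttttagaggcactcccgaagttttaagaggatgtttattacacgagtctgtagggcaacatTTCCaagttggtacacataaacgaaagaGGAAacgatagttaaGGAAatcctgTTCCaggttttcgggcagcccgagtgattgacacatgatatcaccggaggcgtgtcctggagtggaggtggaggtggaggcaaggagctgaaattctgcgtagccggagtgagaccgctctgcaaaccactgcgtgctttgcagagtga
SPRY1, chr4:123398136-123398435, plus strand: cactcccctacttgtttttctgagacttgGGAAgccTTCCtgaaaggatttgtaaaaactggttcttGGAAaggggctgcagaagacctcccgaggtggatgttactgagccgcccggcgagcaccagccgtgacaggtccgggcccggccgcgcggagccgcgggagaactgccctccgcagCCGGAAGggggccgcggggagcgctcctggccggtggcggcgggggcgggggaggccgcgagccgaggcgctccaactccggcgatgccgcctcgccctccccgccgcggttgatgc
SPRY2, chr13:80341077-80341376, minus strand: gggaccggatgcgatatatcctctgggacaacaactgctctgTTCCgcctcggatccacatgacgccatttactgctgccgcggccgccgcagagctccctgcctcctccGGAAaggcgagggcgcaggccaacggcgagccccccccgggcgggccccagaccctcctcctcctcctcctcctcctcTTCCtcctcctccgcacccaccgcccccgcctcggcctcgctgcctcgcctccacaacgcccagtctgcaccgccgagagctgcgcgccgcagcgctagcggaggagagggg
The letters searched on both strands were the ETS core GGAA, the longer ETS motif CCGGAAG (which contains the core), the CIC octamers TGAATGAA, TGAATGGA, TCAATGAA and TCAATGGA, the AP-1 motif TGACTCA or TGAGTCA, and the cyclic AMP response element TGACGTCA. The CIC octamers were written out in full after these windows had been read. The DUSP6 window held the octamer TCAATGGA at 2 places on its reverse strand, beginning at positions -24 and 2 from the start, without overlap with another motif. A CIC octamer occurred in 3.77% of all 35116 windows of this length, and 0.327% held 2 or more. Among the 14711 windows of tested genes the shares were 2.49% and 0.245%. The ETS core occurred 6 times for DUSP6, 4 times for SPRY4, and 5 and 4 times for the SPRY1 windows. Among members that did not pass the test, the SPRY2 windows had 3, 4 and 5, the SPRED2 windows 6 and 5, and SPRED1 had 3. The ranges of the members with and without a call overlap. DUSP5 and ETV4, which also rose, had no window and were not compared. Over all windows the median number of ETS cores was 3, and 95.5% held at least 1. CCGGAAG occurred in the second SPRY1 window, as in 10.3% of all windows and 17.4% of those of tested genes. An AP-1 match lay in the second SPRED2 window, which is not shown, as in 4.95% of all windows and 3.43% of those of tested genes. These are matches of letters and not sites at which a factor was measured.

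The comparison asks which genes differ in HepG2 cells made to express TAF2. Expected counts were tested over all genes with edgeR's quasi-likelihood test, and a gene was called when its Benjamini-Hochberg adjusted p was under 0.05. Of the 10 feedback genes 5 were called, all of them higher, and 0 were lower (also 0 at an unadjusted p of 0.05, and by DESeq2 and limma-voom). Of all tested genes 43.0% were called, 20.6% higher and 22.4% lower. In either direction the share of feedback genes called is thus near that of all genes. All 5 calls were higher, a direction in which 20.6% of all tested genes were called. The genes were not tested as a group, so these counts are not a result about the group. The median log2 fold change was 0.10 over the 10 genes and 0.00 over all tested genes. The libraries of the groups did not overlap for 6 of the 10 genes, all higher with TAF2, against 24.5% of all tested genes in that direction and 50.6% in either.

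**Figure D1:**
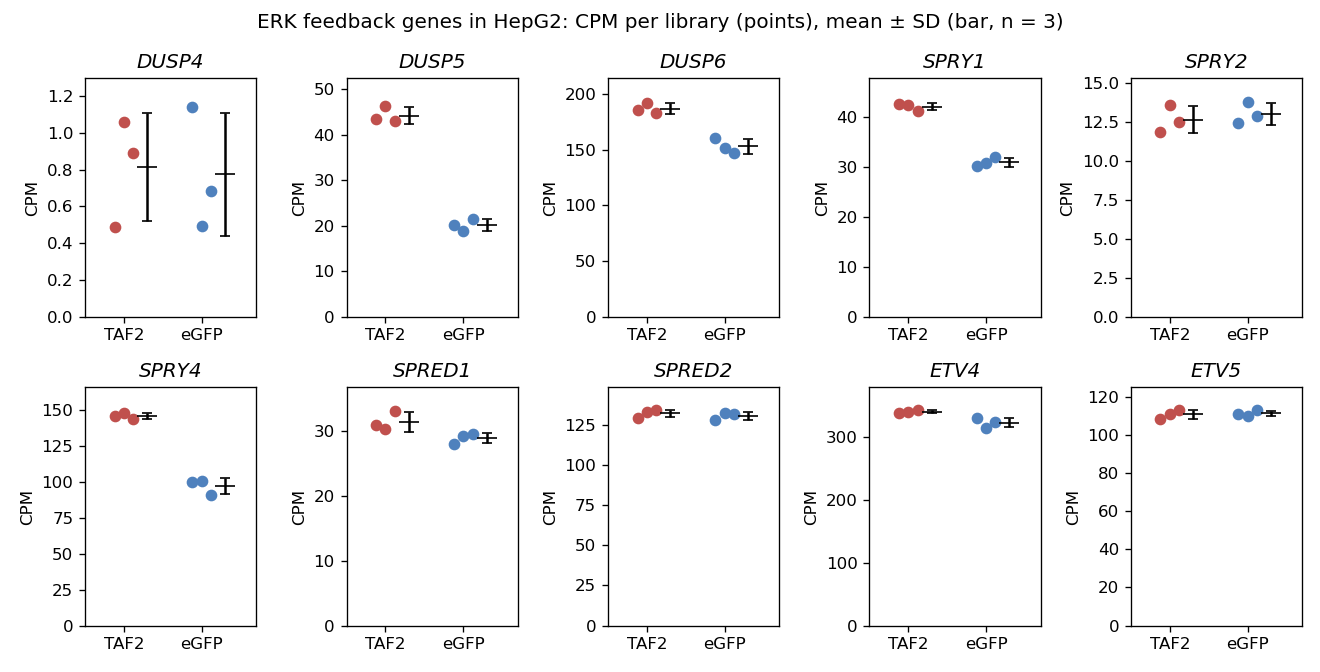
Normalised level in CPM (vertical axis, from 0) of each of the 10 genes in the 3 TAF2 and 3 eGFP libraries, with the mean and SD beside the points. The TAF2 points lie above the eGFP points for DUSP5, DUSP6, SPRY1, SPRY4, SPRED1 and ETV4, and the points overlap for DUSP4, SPRY2, SPRED2 and ETV5.

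DUSP5 is a nuclear phosphatase with high selectivity for ERK. It had 43.5, 46.3 and 42.9 CPM in TAF2 libraries and 20.2, 18.8 and 21.5 CPM in eGFP libraries. Every TAF2 library was above every eGFP library, and the gap exceeded the spread within either group. The means were 44.2 ± 1.78 CPM in TAF2 and 20.1 ± 1.35 CPM in eGFP libraries (SD, n = 3 each). DUSP5 rose 2.19-fold (log2 fold change 1.13, SE 0.05, edgeR adjusted p = 2.52e-21), and 2.34% of tested genes had a larger absolute log2 fold change. DUSP5 lies on chromosome 10 (110497907 to 110511533, GRCh38.p14). The nearest tested genes on its sides were SMNDC1, a splicing factor, 193.0 kb away with a log2 fold change of 0.12 (adjusted p = 0.0243), and SMC3, a cohesin subunit, 56.2 kb away with 0.04 (not called). Over the 396 other genes of chromosome 10 with a mean of at least 5 CPM the median was 0.00.

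DUSP6 is a cytoplasmic phosphatase that binds and inactivates ERK. Its levels were 185, 192 and 183 CPM in TAF2 libraries and 160, 152 and 147 CPM in eGFP libraries. The groups did not overlap, and eGFP replicate 1 was the eGFP library nearest to the TAF2 libraries. The means were 187 ± 4.76 CPM in TAF2 and 153 ± 6.67 CPM in eGFP libraries (SD, n = 3 each). The log2 fold change was 0.29 (95% interval 0.23 to 0.35, edgeR adjusted p = 1.23e-10). Tested against a change of 1.2-fold, this rise of 22.1% was not called (edgeR glmTreat adjusted p = 0.454). DUSP6 lies on chromosome 12 (89347235 to 89352501). KITLG, the ligand of the receptor KIT and the nearest tested gene on one side, is 766.8 kb away and fell (log2 fold change -0.89). POC1B, a centriole protein 49.0 kb away on the other side, rose by 0.17.

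DUSP4, a nuclear phosphatase for ERK and other MAP kinases, was close to the limit of measurement. It had 12, 27 and 25 reads in TAF2 libraries and 31, 11 and 17 reads in eGFP libraries, or 0.486 to 1.06 CPM in TAF2 and 0.495 to 1.14 CPM in eGFP libraries. The ranges covered each other almost entirely. The 95% interval of the fold change ran from 0.655 to 1.63, so a difference within that range is not excluded. The DUSP4 libraries varied by 36.3% in TAF2 and 43.2% in eGFP (coefficient of variation). Read counting alone gives less, 21.7% and 22.5%.

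Among the Sprouty genes, SPRY4 and SPRY1 were called and SPRY2 was not. SPRY4, which restrains signalling upstream of RAF, had 146, 148 and 144 CPM in TAF2 libraries and 100.1, 101 and 90.6 CPM in eGFP libraries. The TAF2 libraries lay close together and all above the eGFP libraries, of which replicate 3 was the lowest. The means were 146 ± 1.92 CPM in TAF2 and 97.2 ± 5.73 CPM in eGFP libraries (SD, n = 3 each). SPRY4 rose by 50.1% (log2 fold change 0.59, SE 0.03, edgeR adjusted p = 9.92e-17).

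SPRY4 lies on the minus strand of chromosome 5 (142310430 to 142325021). The non-coding SPRY4-IT1 (142317620 to 142318322) lies within it, and whether counting used strand is not given in the sources used here, so reads of the pair may not be told apart. SPRY4-IT1 averaged 1.52 ± 0.392 CPM in TAF2 and 1.16 ± 0.208 CPM in eGFP libraries (SD, n = 3 each), little beside SPRY4. The neighbour NDFIP1, an adaptor for ubiquitin ligases 156.0 kb away, rose by 0.11 on the log2 scale.

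SPRY1 had 42.5, 42.4 and 41.2 CPM in TAF2 libraries and 30.2, 30.7 and 31.9 CPM in eGFP libraries. The groups were far apart relative to the spread within them. The means were 42.1 ± 0.722 CPM in TAF2 and 30.9 ± 0.877 CPM in eGFP libraries (SD, n = 3 each), and SPRY1 rose 1.36-fold (log2 fold change 0.44, SE 0.05, edgeR adjusted p = 1.46e-10). SPRY1 lies on chromosome 4 (123396795 to 123403760), where most genes went the other way. Of 355 other genes of chromosome 4 with a mean of at least 5 CPM, 89.6% had a log2 fold change below 0. The median of the 355 was -0.18, and 347 had a lower value than SPRY1. The hepatocyte markers ALB (-0.62), AFP (-0.14) and FGB (0.64) are among the 355. The part of the chromosome's shift in their values was not tested. The nearest tested gene after SPRY1, ANKRD50, is 1260 kb away and fell (-0.18). The one before SPRY1, SPATA5, is 77.4 kb away, had 0.14 and was not called.

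**Figure D2:**
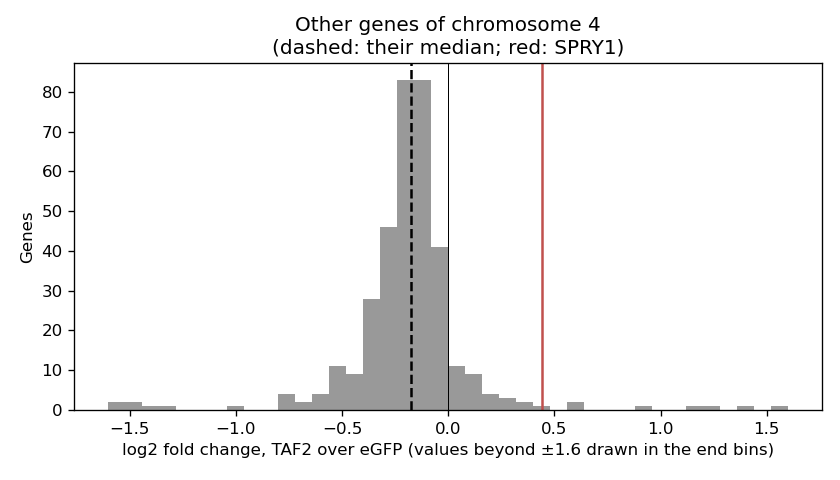
Histogram of the log2 fold change, TAF2 over eGFP (horizontal axis), of the 355 other genes of chromosome 4 with a mean of at least 5 CPM, with the number of genes on the vertical axis. The dashed line marks their median of -0.18 and the red line marks SPRY1 at 0.44, to the right of 347 of them.

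SPRY2, the third Sprouty gene, had 11.8, 13.6 and 12.5 CPM in TAF2 libraries and 12.4, 13.8 and 12.9 CPM in eGFP libraries. The groups overlapped. The means were 12.6 ± 0.877 CPM in TAF2 and 13.04 ± 0.706 CPM in eGFP libraries (SD, n = 3 each). The log2 fold change was -0.04 with a 95% interval from -0.20 to 0.12 (edgeR adjusted p = 0.720). That interval lies below those of SPRY1 (0.35 to 0.54) and SPRY4 (0.52 to 0.65), though the difference between genes was not itself tested. The SPRY2 libraries varied by 6.94% in TAF2 and 5.42% in eGFP (coefficient of variation), near the 5.51% and 5.58% that read counting alone gives.

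SPRED2 had 129.6, 133 and 134 CPM in TAF2 libraries and 128, 133 and 132 CPM in eGFP libraries. Its groups overlapped, and its 95% interval was narrow, from -0.04 to 0.07 on the log2 scale around 0.02. SPRED1, whose loss of function causes Legius syndrome in people, had 30.9, 30.3 and 33.2 CPM in TAF2 libraries and 28.03, 29.2 and 29.6 CPM in eGFP libraries. The TAF2 libraries were all higher, by a small margin over eGFP replicate 3. Its log2 fold change of 0.12 (SE 0.05) missed the threshold (edgeR adjusted p = 0.0518). SPRED1 was called with size factors of DESeq2 (0.0440), with upper-quartile factors (0.0292), without a filter on low counts (0.0361), and without TAF2 replicate 1 (0.0438) or TAF2 replicate 2 (0.0362), while over all alternatives its adjusted p ran from 0.0292 to 1.

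ETV4 had 337, 340.1 and 343 CPM in TAF2 libraries and 329.6, 315 and 323 CPM in eGFP libraries. The groups did not overlap, but the step between them was small. The means were 340.03 ± 2.72 CPM in TAF2 and 323 ± 7.49 CPM in eGFP libraries (SD, n = 3 each), a rise of 5.40% with a 95% interval from 2.06% to 8.86% (log2 fold change 0.08, edgeR adjusted p = 0.00656). A larger absolute log2 fold change was seen in 67.3% of tested genes. ETV4 overlaps the RNA helicase gene DHX8 on the opposite strand of chromosome 17, whose log2 fold change was 0.06 (not called), and reads in the shared stretch may not be told apart. DUSP3, a small atypical phosphatase gene 219.8 kb beyond ETV4, rose by 0.14.

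ETV5 had 108, 111 and 113 CPM in TAF2 libraries and 111, 109.8 and 113 CPM in eGFP libraries. The groups overlapped throughout. The log2 fold change of -0.01 had a 95% interval from -0.06 to 0.05, a change of -4.37% to 3.84% (edgeR adjusted p = 0.911). At this depth the ETV5 and SPRED2 intervals therefore leave out rises of the size seen for DUSP6, SPRY1, SPRY4 or DUSP5.

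**Figure D3:**
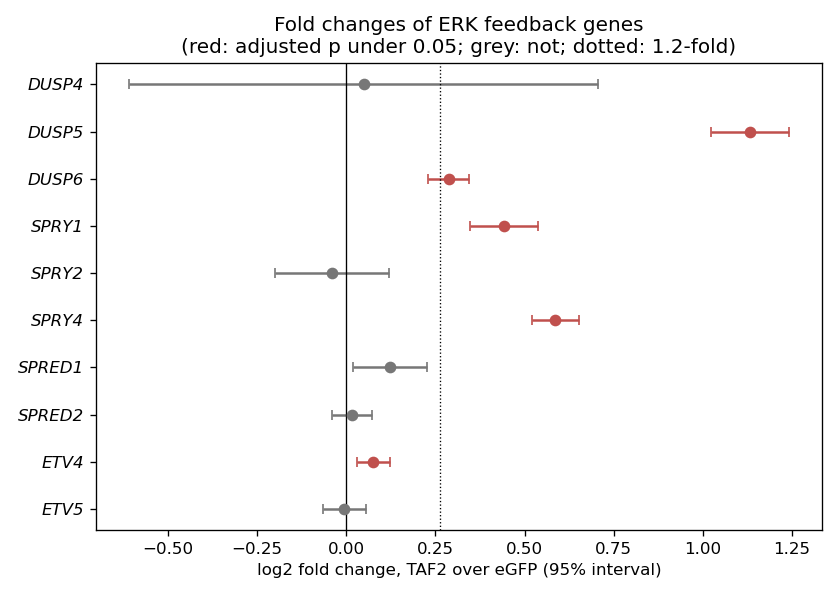
Log2 fold change, TAF2 over eGFP (horizontal axis), with its 95% interval for each of the 10 genes, red where the adjusted p was under 0.05 and grey where it was not. DUSP5 stands at 1.13, SPRY4 at 0.59, SPRY1 at 0.44 and DUSP6 at 0.29, whose interval spans the dotted 1.2-fold line, and DUSP4 has the widest interval of the 10.

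To compare levels between genes, CPM were divided by the mean length of each gene's listed transcripts as GENCODE v29 gives them. In TAF2 libraries ETV4 was highest at 189 ± 1.51 CPM per kb, followed by DUSP6 (58.8), SPRY4 (48.3), SPRED2 (44.9), ETV5 (26.9), DUSP5 (17.3), SPRY1 (17.1), SPRY2 (5.99), SPRED1 (4.04) and DUSP4 (0.191 CPM per kb). In eGFP libraries ETV4 was again highest at 179 ± 4.17 CPM per kb (SD, n = 3), followed by DUSP6 (48.2), SPRED2 (44.4), SPRY4 (32.2), ETV5 (27.04), SPRY1 (12.6), DUSP5 (7.87), SPRY2 (6.18), SPRED1 (3.72) and DUSP4 (0.182 CPM per kb). DUSP5 and SPRY1 overlapped in TAF2 libraries, at 16.8 to 18.1 and 16.8 to 17.3 CPM per kb, whereas DUSP5 was below SPRY1 in every eGFP library. All other neighbours in either order were separated in their ranges over the 3 libraries. The order depends on the length used. The longest listed transcript of each gene was also used, a choice made after seeing the data. SPRY4 then had 29.5 and SPRED2 32.3 CPM per kb in TAF2 libraries. In eGFP libraries SPRY4 then had 19.7 and ETV5 27.04 CPM per kb. For the pair named above, SPRY1 then had 16.1 and DUSP5 17.3 CPM per kb in TAF2 libraries.

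**Figure D4:**
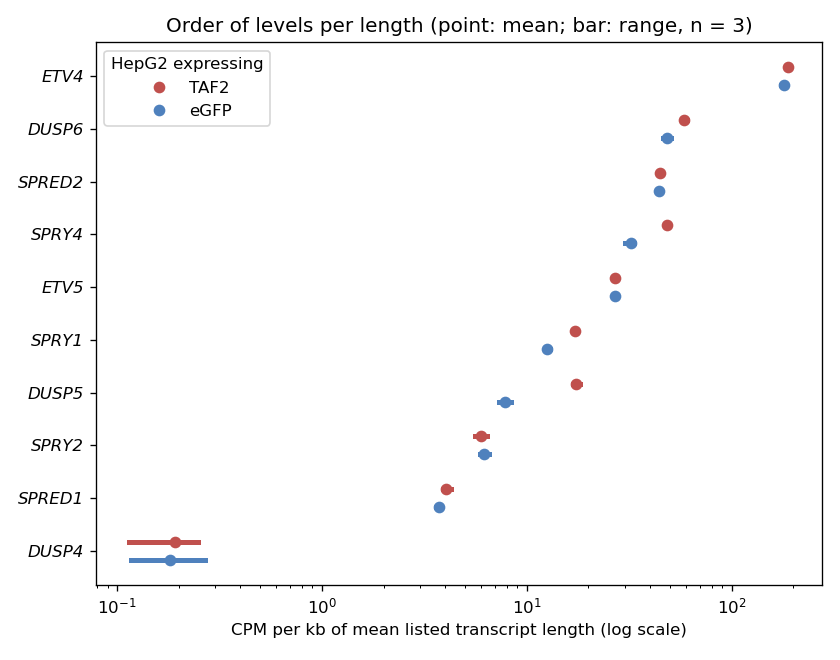
Level in CPM per kb (horizontal axis, log scale) of the 10 genes in TAF2 (red) and eGFP (blue) libraries, by the mean length of listed transcripts. Points are means and bars are ranges over 3 libraries. ETV4 is highest in both groups, DUSP4 lowest, and DUSP5 is level with SPRY1 in TAF2 libraries but below it in eGFP libraries.

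Other genes of the pathway moved both ways and mostly by small amounts. Their calls are to be read against the 43.0% of all tested genes that were called, 20.6% higher and 22.4% lower. Among 19 other ERK output genes 17 were tested, of which 7 rose and 0 fell by edgeR. At an unadjusted p of 0.05 edgeR had 7 higher and 1 lower, and DESeq2 called 6 higher and 0 lower. In either direction the 7 calls of 17 are a share near that of all tested genes. All 7 were higher, a direction in which 20.6% of all tested genes were called. The list was not tested as a group, so these counts are not a result about the list. IER3, an early response gene, rose to 376 ± 5.62 CPM in TAF2 against 228 ± 16.7 CPM in eGFP libraries (log2 fold change 0.72). LIF, a cytokine, rose by 0.47, and ERRFI1, a feedback inhibitor of the EGF receptor, by 0.24. TRIB1, a pseudokinase, rose by 0.20, and PHLDA1, often used as a readout of ERK output, by 0.11. EGR1 and UPP1 were also called higher (UPP1 not by DESeq2, adjusted p = 0.124). CCND1, SPHK1 and FOS had log2 fold changes of 0.01, 0.00 and 0.00, and the list's median was 0.01. The libraries did not overlap for 7 genes of the list higher and 4 lower, against 50.6% of all tested genes in either direction. Those 4, none of them called, were FOSL1 (-0.12), MAFF (-0.08), IL17RD (-0.31) and EMP1 (-0.55). IL17RD and EMP1 averaged 0.575 and 0.709 CPM in TAF2 libraries.

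The remaining MAP kinase phosphatases went both ways. Of 7 listed 6 were tested, of which 2 rose and 2 fell. DUSP7, a cytoplasmic ERK phosphatase like DUSP6, rose by 0.25 on the log2 scale, and DUSP1, an immediate early phosphatase, by 0.23. DUSP8, which acts mainly on stress kinases, fell to 10.5 ± 0.751 CPM in TAF2 against 19.06 ± 0.951 CPM in eGFP libraries (log2 fold change -0.86). DUSP9, a cytoplasmic ERK phosphatase, fell by 0.06, with 383 ± 1.48 CPM in TAF2 and 399 ± 14.1 CPM in eGFP libraries (SD, n = 3 each). In edgeR, DUSP9 was not called with upper-quartile factors (adjusted p = 0.119) or size factors of DESeq2 (adjusted p = 0.0507). It was not called by DESeq2 itself either (adjusted p = 0.106), which called 2 of this list higher and 1 lower.

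In the RAS to ERK cascade 19 of 26 tested genes were not called, 4 rose and 3 fell, and the median log2 fold change was 0.00. DESeq2 called 2 higher and 3 lower: MRAS (adjusted p = 0.0827) and MAP2K2 (0.0828, and 0.0533 by limma-voom) lost their calls. The share called was below that of all tested genes. The adaptor SHC1 rose by 0.41 and the phosphatase PTPN11 by 0.17. The adaptor GAB1 fell by 0.50, RRAS2 by 0.27 and the ubiquitin ligase CBL by 0.15. GAB1 lies on chromosome 4, whose 355 genes compared with SPRY1 had a median of -0.18. The part of that shift in the fall of GAB1 was not tested. NRAS (0.04), BRAF (0.23), MAP2K1 (0.05) and MAPK3 (-0.07) were not called. Among other ETS factors and regulators 3 of 9 tested genes rose and 1 fell, a share near that of all tested genes. ETS2 rose by 0.16, ERF, an ETS repressor controlled by ERK, by 0.12 and ELK1 by 0.11. ELK1 was not called by limma-voom (adjusted p = 0.0545) or DESeq2 (adjusted p = 0.142), and DESeq2 called 2 of this list higher and 1 lower. CIC fell by 0.13, with 71.3 ± 0.888 CPM in TAF2 and 78.04 ± 2.02 CPM in eGFP libraries (SD, n = 3 each).

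**Figure D5:**
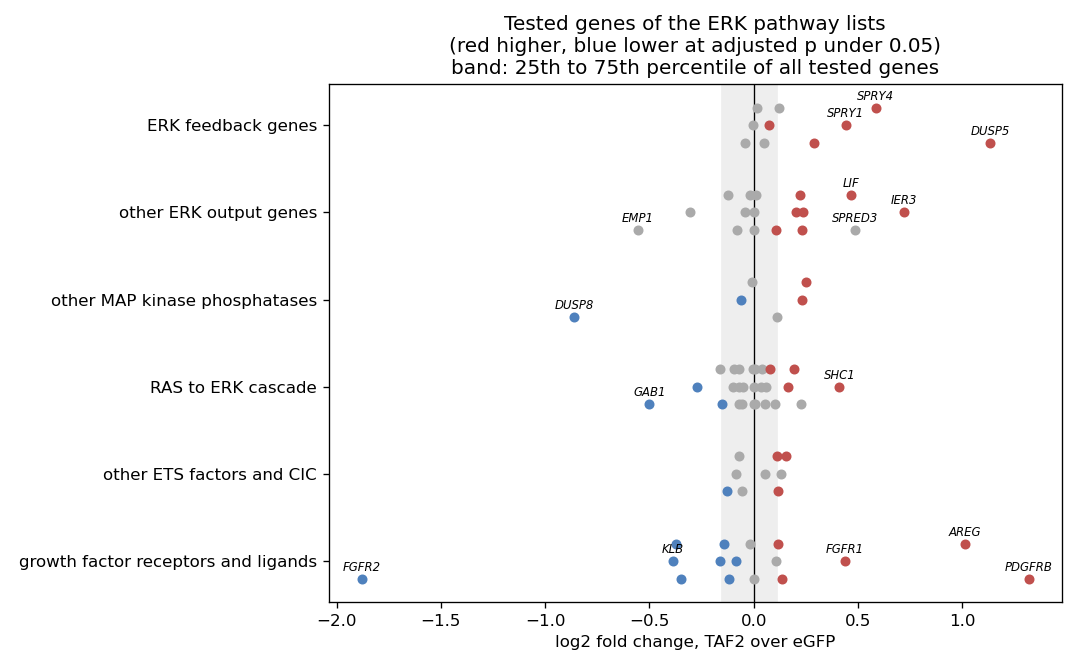
Log2 fold change, TAF2 over eGFP (horizontal axis), of every tested gene of the ERK feedback genes and of 5 other ERK pathway lists (rows; vertical scatter within a row only separates points), red where called higher and blue where called lower. Called genes lie on both sides of 0 in 4 of the other lists, and DUSP5 is the rightmost of the feedback genes at 1.13.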

How the data were processed

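Gene expression was measured by RNA-seq in 3 TAF2 and 3 eGFP libraries of HepG2. The authors deposited a table of expected counts per gene (estimated counts, without normalization), per the file headers. The submitters' processing notes name RSEM and hg38. Aligner, annotation release and strand use were not given in the sources used here. RSEM divides ambiguous reads by probability, and 4.18% to 4.45% of values per library were not whole. Library columns were matched to samples by name.

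Counts were rounded, filtered with filterByExpr of edgeR 4.0.16 (R 4.3.3; minimum count 10), scaled by TMM (factors 0.998 to 1.003) and compared by the robust quasi-likelihood test with group alone as the term. Adjustment was by Benjamini-Hochberg over 12902 genes, with a threshold of 0.05. CPM use the scaled library sizes. Standard errors and 95% intervals came from the fitted weights and the quasi-likelihood dispersion. The common dispersion of 0.000758 (a biological coefficient of variation of 2.75%) lets small differences be called. The steps were tested on simulated data. Positions are RefSeq's on GRCh38.p14, matched by transcript accession for 98.1% of tested genes.

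The members and lists were chosen with earlier results of these data known. Genes named besides the members are, in each list, up to 5 called genes of smallest p, the tested genes beside each called member, and the 5 whose pattern is most like that of DUSP5. Others named in the text, such as the uncalled cascade genes, EGR1, UPP1, CCND1, SPHK1, FOS, FOSL1, MAFF, IL17RD and EMP1, were chosen after their values were seen. Alternatives were other scalings, filters, DESeq2 1.42.0, limma 3.58.1, a 1.2-fold threshold, the replicate block and leaving out each library. Some genes of the lists are not reported here.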

Additional observations from a re-analysis of the deposited data

How the results depend on the processing

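The rises of DUSP5, SPRY4 and SPRY1 were called under each of the 14 alternatives run, with log2 fold changes of 1.09 to 1.18, 0.54 to 0.62 and 0.43 to 0.47. DUSP6 (0.26 to 0.33) and ETV4 (0.06 to 0.10) were called under 13 of 14, the exception being the test against a 1.2-fold change (adjusted p = 0.454 and 1). Against 1.2-fold, 3 members were called higher and 1243 genes in all, in place of 5 and 5548. TAF2 itself was not called there either (adjusted p = 0.0518). SPRED1 was called under 5 of 14. SPRY2, SPRED2, ETV5 and DUSP4 were called under none of those run, which for DUSP4 were 13, since it did not pass the filter of at least 1 CPM in 3 libraries. With 1 library left out, 4800 to 5288 genes were called. Upper-quartile factors moved the median of all genes to 0.01 and gave 3001 higher and 2675 lower calls, in place of 2662 and 2886. Same-numbered TAF2 and eGFP libraries did not deviate together (r = -0.0446, -0.0905 and -0.103 across genes). Deviations from a mean of 3 libraries constrain each other, so these values cannot decide whether the numbers pair libraries. The labels do not say so either. With the replicate number as a block 5250 genes and 5 members were called, and 0 samples correlated best with their own number. For DUSP4, 11 to 31 reads per library and the spread among libraries leave a fold change of 0.655 to 1.63 possible.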

Other observations

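Receptors and ligands that feed the RAS to ERK pathway moved in both directions. Of 24 listed genes 16 were tested, of which 5 rose and 8 fell (5 and 7 by DESeq2, FGFR3 having an adjusted p = 0.0594), against 20.6% higher and 22.4% lower of all tested genes. PDGFRB, a receptor for platelet-derived growth factor, rose to 19.5 ± 0.674 CPM in TAF2 against 7.87 ± 0.860 CPM in eGFP libraries (SD, n = 3 each, log2 fold change 1.32), and FGFR1 rose by 0.44. KLB, the co-receptor for the hormone FGF19, fell to 73.8 ± 0.893 CPM in TAF2 against 96.5 ± 2.24 CPM in eGFP libraries (-0.39). FGFR4, its main liver receptor, fell by 0.16, and FGFR2 fell to 0.592 ± 0.239 CPM in TAF2 against 2.22 ± 0.301 CPM in eGFP libraries. KLB and FGFR3 lie on chromosome 4, where 89.6% of the 355 genes compared with SPRY1 had a log2 fold change below 0. The part of that shift in their falls was not tested.

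The genes whose profile over the 6 libraries was closest to that of DUSP5 were GRIN2D, SPP1, NES, RBM24 and PIM1. Likeness was the root mean square difference of centred log2 CPM among 10347 other genes (mean of 5 CPM or more), and it ran from 0.041 for GRIN2D to 0.066 for PIM1. SPP1, the secreted matrix protein osteopontin, had 739 ± 6.86 CPM in TAF2 and 336 ± 6.45 CPM in eGFP libraries. NES, the intermediate filament nestin, had 205 ± 4.99 CPM in TAF2 and 95.6 ± 0.687 CPM in eGFP libraries. PIM1, a serine/threonine kinase, had 132 ± 3.46 CPM in TAF2 and 63.4 ± 1.97 CPM in eGFP libraries (SD, n = 3 each). With 6 libraries in 2 groups, such likeness mostly reflects a similar fold change.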
